A study of Homo sapiens with 6 samples.

Results

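RAB proteins are small GTPases that mark membranes of the cell and direct vesicles between them. Their genes were taken from the array by symbol, as RAB followed directly by a number with or without a letter from A to D. A probe set is the group of array probes that reads one transcript region, and only probe sets annotated to a single gene were used. These gave 42 RAB genes among 11963 genes in all, read by 76 probe sets, and each gene was represented by its brightest probe set. All RNA came from HCT116, an established human colon cancer cell line, carrying a hairpin RNA delivered by the lentiviral vector FUGW. In 3 samples the hairpin was directed against NFX1-91, a splice form of the zinc finger protein NFX1, and in 3 control samples against β-galactosidase. Every sample therefore expressed a hairpin, and the labels do not say whether cells were cloned or pooled, or whether samples came from separate cultures. The error behind each p-value is thus the variation among 6 arrays, part of which may be technical, and their small number limits the precision. The comparison asked which RAB transcripts differed in cells with the NFX1-91 hairpin.

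A RAB protein is bound to GTP when active and to GDP when inactive. Exchange factors load GTP at a chosen membrane, GTPase-activating proteins end the active state, and effectors such as tethers and motors bind the active form. A lipid tail added by geranylgeranyl transferase holds the protein on the membrane, and GDP dissociation inhibitors carry the inactive form back through the cytosol. In an epithelial cell such as those of the colon, different RABs serve transport from endoplasmic reticulum to Golgi, uptake, recycling, delivery to the cell surface and junctions, and secretion.

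Signals are deposited intensities scaled to a mean of 500 per array. Fold changes are differences in log2(signal + 16), NFX1-91 shRNA minus control, which understates the change of dim genes. A gene is called higher or lower here when limma's adjusted p (Benjamini-Hochberg over all 11963 genes) is under 0.05. Over all genes, 3890 or 32.5% were called, 14.7% higher and 17.8% lower. Arrays of the same group correlated at 0.993 to 0.995 (Pearson), and arrays of different groups at 0.984 to 0.985. The brightest NFX1 probe set read 148 ± 10.7 (SD, n = 3) in control and 134 ± 8.39 in NFX1-91 shRNA samples and did not pass (log2 fold change -0.13). Another NFX1 probe set read -0.06, and the dimmest fell by 0.60 from 19.6 ± 4.17 to 7.42 ± 2.48 (limma adjusted p = 0.0137 over probe sets). The mean of the dimmest over all arrays, 13.5, lay below the offset of 16 added to each signal, so its fall cannot be judged from these arrays. From brightest to dimmest, exact permutation gave p = 0.2, 0.5 and 0.1 for the NFX1 probe sets, and 0.1 is the smallest value possible. Which NFX1 splice form each reads was not tested. Of 7 colon epithelial markers KRT18 (0.54) and KRT8 (0.35) were higher, CDH1 (-0.50) and EPCAM (-0.15, with mean signals of 4350 and 3918) were lower, and KRT19 did not pass, while CDH17 and VIL1 lay below the offset of 16. Their summed signal, most of it from keratins, ran from 23134 to 24008 in control and from 27832 to 27992 in NFX1-91 shRNA samples. Of 6 fibroblast and 4 blood cell markers measured limma called 0, and 0 had an unadjusted p under 0.05.

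RAB genes changed in both directions. Of the 42, 14 were higher (33.3%, against 14.7% of all genes), 8 were lower (19%, against 17.8%) and 20 did not pass. Without control array 2 there were 9 higher and 8 lower RAB genes, and without a variance trend 10 and 9. Calls over all genes fell too, to 3075 in the first setting and to 3348 (12.3% of genes higher and 15.7% lower) in the second. The median log2 fold change was 0.04 over RAB genes and 0.00 over all genes, and the median size of change, regardless of sign, was 0.28 and 0.18. The median signal was 315 for RAB genes and 140 for all genes, and 28 of the 42 lay above the median of all genes in brightness. With genes below the 40th percentile of brightness left out, 55% of 7178 genes were called (25.2% higher and 29.8% lower) and 67.6% of 34 RAB genes (44.1% higher and 23.5% lower). Among brighter genes the share of RAB genes called lower was thus below that of all genes. In 25 RAB genes, or 59.5%, the 3 samples of the groups did not overlap, against 43.5% of all genes. Among called genes, 2 RAB genes were at least 2-fold lower (RAB26 and RAB36) and 0 were at least 2-fold higher. Over all 11963 genes the counts were 157 lower and 63 higher, so such falls outnumbered rises there too.

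**Figure D1:**
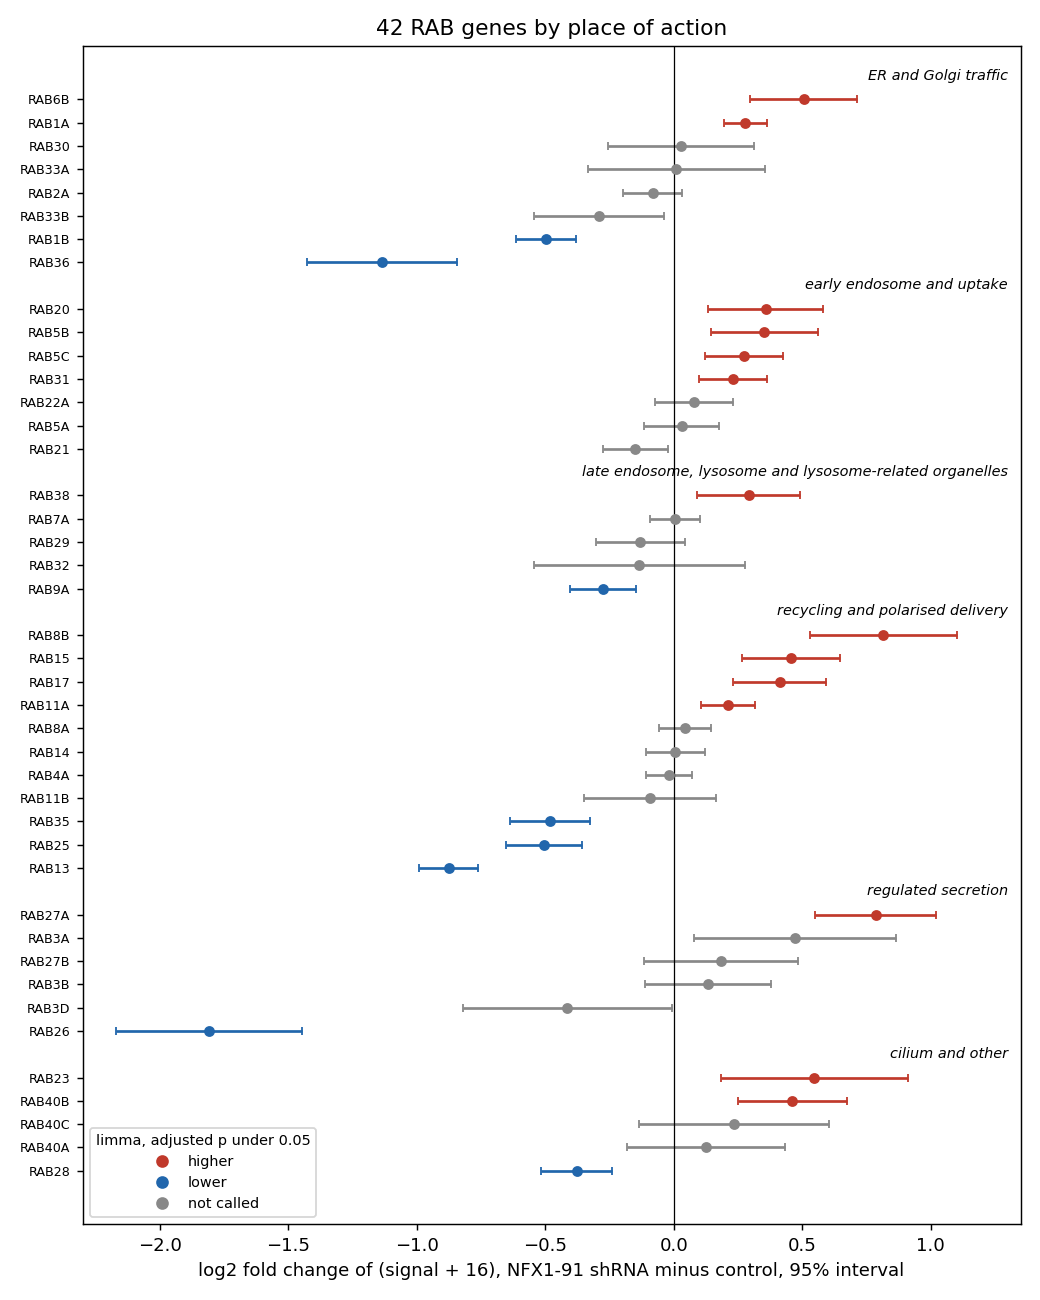
Log2 fold change of (signal + 16) for each of the 42 RAB genes, NFX1-91 shRNA minus control, grouped by where the protein acts; bars are 95% intervals from limma and colours give the call at an adjusted p under 0.05. RAB26 at -1.81 and RAB36 at -1.13 lie farthest to the left and RAB8B at 0.82 farthest to the right, and called genes of both directions occur in 5 of the 6 groups.

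The largest fall was that of RAB26, which acts in the maturation and release of secretory granules. Its signal was 220, 227 and 249 in the control samples and 42.8, 48.6 and 77.0 in the NFX1-91 shRNA samples. All control values lay far above all NFX1-91 shRNA values, with a log2 fold change of -1.81 (SE 0.161, limma adjusted p = 2.57e-05). A second RAB26 probe set fell by 1.43, from 181 ± 7.35 to 58.0 ± 16.2. Some markers of neuroendocrine cells, which are also rich in granules, moved beside it. Of 6 measured, SCG2, ENO2 and CHGB were called lower and 0 were called higher. SNAP25 went the other way without a call (0.21, from 95.7 ± 7.11 to 113 ± 5.26), with every NFX1-91 shRNA sample above every control. The summed signal of the 6 markers ran from 655 to 697 in control and from 448 to 487 in NFX1-91 shRNA samples. CHGA and SYP lay below the offset in both groups. The part of these markers in the RAB26 result was not tested.

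Of the other 5 measured genes of regulated secretion 1 rose and 4 did not pass. With RAB26, 33.3% of the 6 were called, against 32.5% of all genes. RAB27A, which docks secretory granules, melanosomes and exosome-bearing bodies at the cell surface, was the riser. Its signal was 110, 135 and 128 in control and 203, 244 and 233 in NFX1-91 shRNA samples, so the groups were well apart. The log2 fold change was 0.79 (SE 0.105, limma adjusted p = 0.000304). All 4 RAB27A probe sets were called higher, with log2 fold changes from 0.68 to 0.82. All 4 are of a kind able to read several transcripts. RAB27B, the paralogue of RAB27A, at 41.4 ± 6.99 and 49.0 ± 4.76, did not pass (0.18, 95% interval -0.12 to 0.49).

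The RAB3 proteins, which act late in release of synaptic and endocrine vesicles, gave no call. RAB3A read 48.7, 51.8 and 76.6 in control and 88.7, 68.9 and 106 in NFX1-91 shRNA samples, with overlapping groups (0.47, adjusted p = 0.0683). RAB3D read -0.41 (adjusted p = 0.116) and RAB3B 0.13 (adjusted p = 0.417). RAB3A passed as higher without control array 3 (adjusted p = 0.0234), without NFX1-91 shRNA array 2 (0.0473), with arrays centred on their median (0.0409), with dim genes left out (0.0224) and with a replicate block (0.0260). RAB3D passed as lower without control array 1 (0.0185).

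Among 8 genes of endoplasmic reticulum and Golgi traffic, 2 rose, 2 fell and 4 did not pass. Of these 8 genes 50% were called, against 32.5% of all genes. The 2 forms of RAB1, which serve the same step from endoplasmic reticulum to Golgi, moved apart. RAB1B had a signal of 1343, 1241 and 1337 in control and 876, 946 and 942 in NFX1-91 shRNA samples. It was lower in every NFX1-91 shRNA sample, with a log2 fold change of -0.50 (SE 0.0526, limma adjusted p = 7.08e-05). RAB1A read 4439, 4451 and 4622 in control and 5716, 5366 and 5331 in NFX1-91 shRNA samples. It was higher in every one of them, by 0.28 (SE 0.0368, limma adjusted p = 0.000283). Of the other RAB1A probe sets one rose by 0.37 and the other, the only one not marked as shared (able to read several transcripts), read 0.04 and did not pass.

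RAB36, a Golgi RAB that also bears on the position of late endosomes and lysosomes, fell by 1.13 (SE 0.130, limma adjusted p = 0.000116). It is given in full although both its group means lie below the median signal of all genes. Its signal was 76.8, 64.6 and 72.5 in control and 23.6, 27.9 and 20.0 in NFX1-91 shRNA samples, without overlap. RAB6B, a Golgi RAB best known from neurons, rose by 0.51 (SE 0.0935, limma adjusted p = 0.00226). It read 101, 97.1 and 98.0 in control and 139, 157 and 144 in NFX1-91 shRNA samples, with all values of the second group above the first. The second RAB6B probe set read 0.27 and did not pass. RAB6A had no probe set of its own. Of 4 probe sets shared by RAB6A and its close copies, 2 were lower (-0.22 and -0.16) and 2 did not pass, and which copy they read cannot be told apart.

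RAB2A, RAB30, RAB33A and RAB33B did not pass, with log2 fold changes of -0.08, 0.03, 0.01 and -0.29. For RAB33B all NFX1-91 shRNA samples, from 56.9 to 67.2, lay below all control samples, from 73.5 to 80.9, with an adjusted p = 0.0791. It passed with dim genes left out (0.0366), without a variance trend (0.0331) and when genes were read by the mean of their probe sets (0.0487). RAB2A was read by 6 probe sets that disagreed. Its brightest went from 1418 ± 85.0 to 1338 ± 30.1, and 2 dimmer shared ones were called higher.

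**Figure D2:**
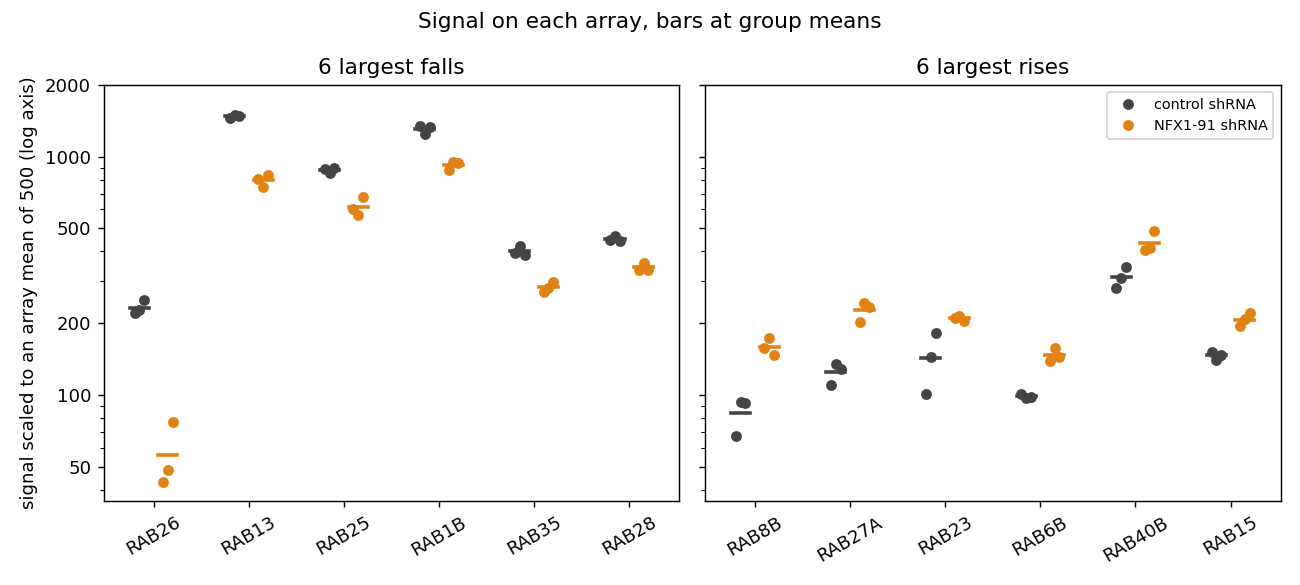
Scaled signal on each of the 6 arrays (log axis; points are arrays, bars are group means) for the 6 RAB genes with the largest called falls and the 6 with the largest called rises, among those whose brighter group mean is above the median signal of all genes (for RAB8B and RAB6B only in the NFX1-91 shRNA group). In each of the 12 genes the 3 arrays of the groups do not overlap, which choosing large called changes makes likely. Of all genes 43.5% do not overlap. RAB26 shows the widest gap, from a mean of 232 to 56.1.

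Genes of recycling and polarised delivery were the largest group, and of 11 measured 4 rose, 3 fell and 4 did not pass. Of these 11 genes 63.6% were called, against 32.5% of all genes, and 9 lay above the median of all genes in brightness. With dim genes left out 55% of all genes were called. RAB13, which brings proteins to tight junctions, read 1448, 1493 and 1481 in control and 802, 749 and 840 in NFX1-91 shRNA samples. The groups were far apart relative to their spread, with a log2 fold change of -0.88 (SE 0.0518, limma adjusted p = 2.45e-06), the smallest adjusted p of all RAB genes.

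RAB25, the epithelial relative of RAB11, fell by 0.50 (SE 0.0656, limma adjusted p = 0.000259). Its values were 886, 857 and 892 in control and 602, 570 and 675 in NFX1-91 shRNA samples, lower in all of the latter. RAB35, which returns cargo from endosomes to the cell surface, read 396, 422 and 388 and then 271, 281 and 299. These groups did not overlap either, and the log2 fold change was -0.48 (SE 0.0692, limma adjusted p = 0.000492). A second RAB35 probe set read -0.10 and did not pass, and by the mean of both the gene did not pass (-0.29, adjusted p = 0.162).

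RAB8B gave the largest rise of all RAB genes. It is a close copy of RAB8A, and both carry vesicles from Golgi and recycling endosome to the cell surface and cilium. RAB8B read 67.4, 93.0 and 92.1 in control and 158, 173 and 147 in NFX1-91 shRNA samples, so each of the latter exceeded every control. The log2 fold change was 0.82 (SE 0.127, limma adjusted p = 0.000805). RAB8A read 1614, 1698 and 1625 and then 1725, 1750 and 1618, with overlapping groups and a log2 fold change of 0.04 (95% interval -0.06 to 0.15).

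RAB15, which slows transport through early and recycling endosomes, rose by 0.46 (SE 0.0853, limma adjusted p = 0.00238). It read 152, 140 and 147 in control and 194, 208 and 220 in NFX1-91 shRNA samples, without overlap, and its second probe set also rose, by 0.53. RAB17, an epithelial RAB of transcytosis, rose by 0.41 from 272 ± 20.9 to 366 ± 24.3. RAB11A, the main RAB of the recycling endosome, rose by 0.21 from 3187 ± 134 to 3698 ± 190, but its second probe set read -0.21 and did not pass. By the mean of both, RAB11A read 0.00 with an adjusted p = 0.999, and without a variance trend its adjusted p was 0.0620. RAB4A, RAB8A, RAB11B and RAB14 did not pass, and their log2 fold changes ran from -0.09 to 0.04.

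Because RAB8B was called higher and RAB8A did not pass, the 250 bases before each gene's start (RefSeq, GRCh38.p14) are shown for this pair. They are joined by those of RAB31 and RAB40B, the only called RAB genes with a listed promoter that held a motif searched for. The motifs were the E-box CACGTG, bound by MYC and USF factors, and CCTAGCAAC, the core of the X1 box of MHC class II promoters to which NFX1 was first found to bind. Both strands were searched, over 300 bases from 250 before to 50 after the start. The motifs do not overlap each other. Capitals mark a motif, and the RAB8A and RAB8B windows hold neither. The windows are chr19:16111639-16111888 (plus strand) for RAB8A, chr15:63189356-63189605 (plus) for RAB8B, chr18:9708051-9708300 (plus) for RAB31 and chr17:82698699-82698948 (minus) for RAB40B.
RAB8A: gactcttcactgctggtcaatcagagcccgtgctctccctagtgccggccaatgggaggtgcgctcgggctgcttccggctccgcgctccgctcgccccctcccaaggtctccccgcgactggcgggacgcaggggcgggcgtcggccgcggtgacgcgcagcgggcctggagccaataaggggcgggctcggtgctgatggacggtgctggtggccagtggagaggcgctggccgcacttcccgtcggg
RAB8B: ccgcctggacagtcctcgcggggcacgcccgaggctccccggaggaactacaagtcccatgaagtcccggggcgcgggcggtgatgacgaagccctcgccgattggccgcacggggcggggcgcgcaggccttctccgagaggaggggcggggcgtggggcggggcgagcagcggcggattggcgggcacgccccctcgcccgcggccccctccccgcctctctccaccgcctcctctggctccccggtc
RAB31: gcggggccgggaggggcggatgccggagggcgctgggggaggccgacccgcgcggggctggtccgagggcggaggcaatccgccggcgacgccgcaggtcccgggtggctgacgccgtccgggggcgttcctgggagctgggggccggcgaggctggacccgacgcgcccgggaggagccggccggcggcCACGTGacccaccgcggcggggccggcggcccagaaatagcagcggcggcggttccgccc
RAB40B: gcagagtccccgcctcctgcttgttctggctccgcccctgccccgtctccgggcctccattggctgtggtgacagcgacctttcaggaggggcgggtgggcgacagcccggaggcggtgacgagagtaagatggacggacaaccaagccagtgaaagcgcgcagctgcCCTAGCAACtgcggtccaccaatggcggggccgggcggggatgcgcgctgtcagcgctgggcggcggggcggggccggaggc
Promoters were listed for 33 of the 42 genes, and the called genes RAB1A, RAB26 and RAB36 were among those without one. CACGTG was found in those of RAB4A, RAB5A, RAB21, RAB29 and RAB31, of which RAB31 was called. A gene can have several promoters, and counted by promoter 5 of the 46 of RAB genes held it, against 7.26% of all 35116. CCTAGCAAC was found for RAB40B, and in 0.638% of all promoters. The G and C content of the 250 bases was 72.4% for RAB8A and 77.2% for RAB8B.

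Of 7 genes of the early endosome and of uptake, 4 rose (57.1%, against 33.3% of RAB genes and 14.7% of all genes), 0 fell and 3 did not pass. All 7 lay above the median of all genes in brightness. With dim genes left out, 25.2% of all genes and 44.1% of RAB genes were called higher. With so few genes these shares were not compared by a test. RAB5B and RAB5C, 2 of the 3 forms of RAB5 that govern fusion of early endosomes, rose by 0.35 and 0.27. RAB5B went from 271 ± 23.9 to 351 ± 36.0 (SD, n = 3 per group) and RAB5C from 1030 ± 63.1 to 1249 ± 101. Both probe sets of RAB5C were called higher. RAB5A, at 1084 ± 56.6 and 1110 ± 89.4, did not pass (0.03, 95% interval -0.11 to 0.18). RAB31, which links the Golgi with endosomes and whose promoter with its E-box is printed above, rose by 0.23, and its other probe sets read 0.25 and 0.25 without a call. RAB20, found on phagosomes and maturing endosomes, rose by 0.36 from 200 ± 16.2 to 262 ± 31.4. RAB22A read 0.08 and RAB21 -0.15, and neither passed, although RAB21 samples did not overlap and its unadjusted p was 0.0253 (limma).

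These rises were small, and some calls were lost when an array was left out. Calls over all genes fell as well, from 3890 to 3075 without control array 2 and to 2915 without NFX1-91 shRNA array 2. The limma adjusted p was 0.0199 for RAB20, 0.0154 for RAB5B and 0.0114 for RAB5C. For RAB20 it was 0.0769 without control array 2, 0.0710 without control array 3, 0.0543 without NFX1-91 shRNA array 2 and 0.0630 without array 3. For RAB5B it was 0.0555 without control array 2, and 0.0660 and 0.0576 without NFX1-91 shRNA arrays 2 and 3. For RAB5C it was 0.0554 without control array 2, 0.0531 without NFX1-91 shRNA array 2 and 0.0563 without a variance trend. RAB21 passed as lower without control array 1 (adjusted p = 0.0245). RAB31 kept its call whichever array was left out.

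Among 5 genes of late endosomes, lysosomes and related organelles, 1 rose, 1 fell and 3 did not pass. Of these 5 genes 40% were called, against 32.5% of all genes. RAB9A, which returns mannose 6-phosphate receptors from late endosomes to the Golgi, fell by 0.27 from 702 ± 26.0 to 578 ± 27.3 (limma adjusted p = 0.00456). RAB38, known from melanosomes and other lysosome-related organelles, rose by 0.29 from 264 ± 11.9 to 327 ± 36.0 (limma adjusted p = 0.0300). Its call was lost without control array 1, 2 or 3 (adjusted p = 0.0766, 0.0778 and 0.0518) and without NFX1-91 shRNA array 2 or 3 (0.115 and 0.0969), and also without a variance trend (0.0600). RAB7A, the central RAB of late endosomes, had a log2 fold change of 0.01 with a 95% interval of -0.09 to 0.10. One of its 3 dimmer probe sets was called lower, from 1222 ± 39.7 to 1079 ± 69.8. RAB29 read -0.13 and RAB32, near the offset, also -0.13, and neither passed.

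The remaining 5 genes act at the cilium or elsewhere, and of them 2 rose, 1 fell and 2 did not pass. Of these 5 genes 60% were called, against 32.5% of all genes. RAB28, known from the cilium of photoreceptors, read 445, 463 and 441 in control and 334, 358 and 335 in NFX1-91 shRNA samples. It was lower in each of the latter, by 0.38 (SE 0.0618, limma adjusted p = 0.00110), and a second probe set, also at -0.38, did not pass (adjusted p = 0.103 over probe sets). RAB23, an inhibitor of Hedgehog signalling, read 101, 144 and 182 in control and 211, 215 and 204 in NFX1-91 shRNA samples. The control samples spread widely but stayed below all others, and the log2 fold change was 0.55 (SE 0.162, limma adjusted p = 0.0269). The RAB23 adjusted p was 0.0647 without control array 2, and 0.0788, 0.0980 and 0.0673 without NFX1-91 shRNA arrays 1, 2 and 3. Without a variance trend it was 0.0707.

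RAB40B, a RAB with a SOCS box that recruits a ubiquitin ligase and the gene with the X1 box core in its promoter, read 280, 310 and 344 in control and 405, 412 and 487 in NFX1-91 shRNA samples. These values did not overlap, and the log2 fold change was 0.46 (SE 0.0951, limma adjusted p = 0.00417). Its second probe set, which is dimmer and of a kind that may read other transcripts, went the opposite way, from 54.9 ± 2.46 to 22.0 ± 1.77 (log2 fold change -0.90). The direction of RAB40B therefore depends on the probe set, and the mean of both read -0.22 (adjusted p = 0.0753). RAB40A, at a mean signal of 1.24 in control and 2.89 in NFX1-91 shRNA samples, and RAB40C, at 11.4 and 16.6, lay around or below the offset and did not pass.

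Paralogues were compared directly by the ratio of their signals on each array, which shows unequal change only. In 8 families 14 pairs were tested, and in 8 of the 14 the ratios of the groups did not overlap. Other gene pairs were not counted for comparison, and of all single genes 43.5% did not overlap. Among the 8 is RAB40A with RAB40B, where RAB40A lay below the offset, so that ratio follows RAB40B. With 3 arrays against 3 the exact two-sided permutation test cannot give a p below 0.1, and these 8 pairs gave that value, or 0.175 after Benjamini-Hochberg adjustment over the 14 pairs, so 0 pairs passed. RAB1B moved 0.78 lower than RAB1A on the log2 scale (second minus first -0.78), and its log2 ratio to RAB1A ran from -1.83 to -1.71 in control and from -2.68 to -2.48 in NFX1-91 shRNA samples. RAB8B moved 0.77 above RAB8A, and RAB27B -0.60 relative to RAB27A. Within RAB5, form B moved 0.32 above form A without overlap, while form C, at 0.24 above A, overlapped (exact permutation p = 0.3, n = 3 per group). RAB3D moved -0.89 relative to RAB3A, though neither was called by itself.

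**Figure D3:**
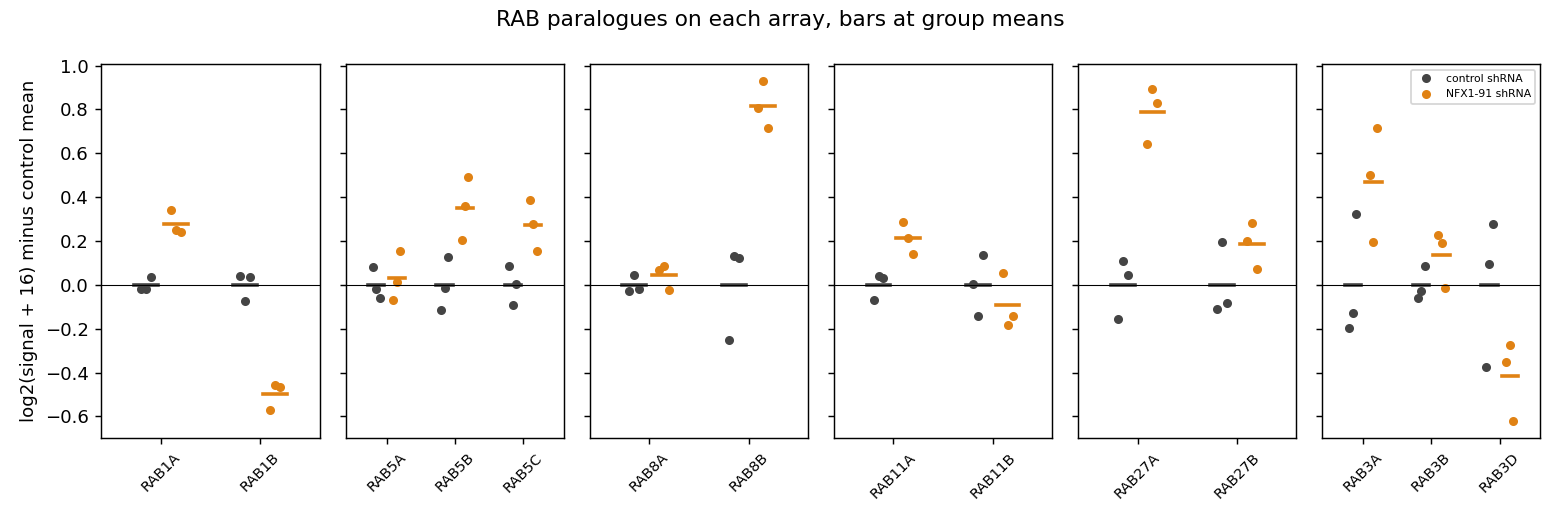
Log2(signal + 16) on each array minus the control mean of the same gene, for 6 of the 8 RAB families with several measured members; points are arrays and bars group means. RAB1A lies at 0.28 and RAB1B at -0.50, RAB8B at 0.82 beside RAB8A at 0.04, and RAB27A at 0.79 beside RAB27B at 0.18.

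Other probe sets gave a check on the choice of the brightest. Of the 22 called RAB genes 11 had a single probe set, which is of the shared kind for RAB1B, RAB8B, RAB23 and RAB36. Of the other 11, 5 had another probe set called the same way (RAB1A, RAB5C, RAB15, RAB26 and RAB27A) and 1, RAB40B, had one called the opposite way. Of the 10 uncalled genes with several probe sets, RAB2A and RAB7A had another that was called. Over all probe sets of the array 25.7% were called.

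**Figure D4:**
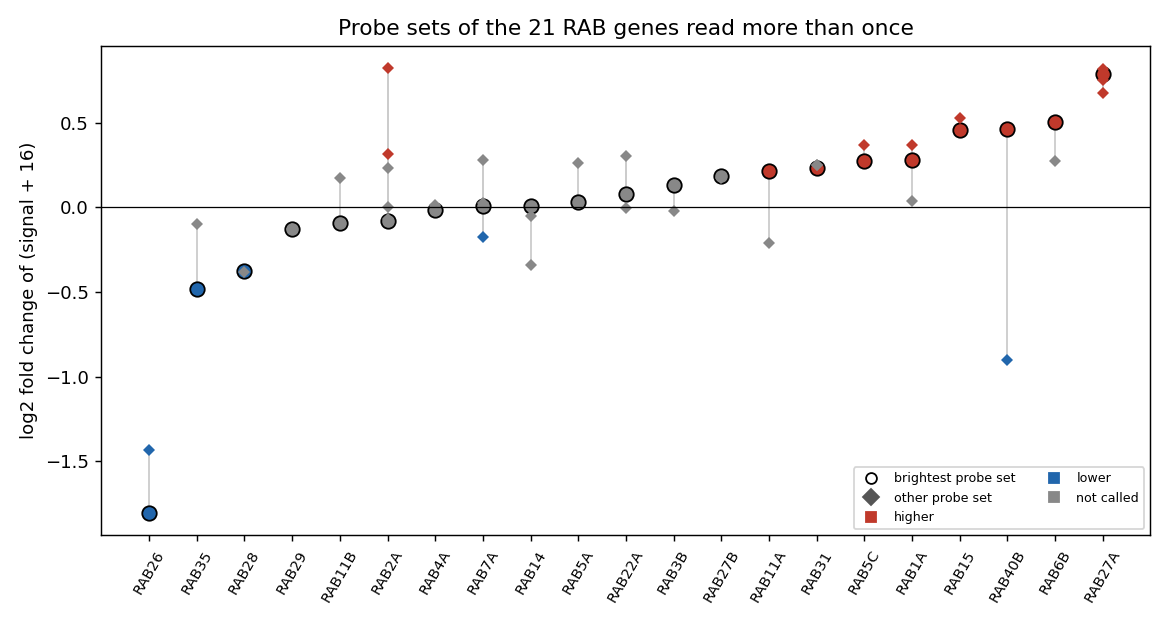
Log2 fold change of (signal + 16) of every probe set of the 21 RAB genes with more than one; outlined circles are the brightest probe set of a gene, diamonds the others, and colours give limma's call over all probe sets. RAB27A and RAB26 have all probe sets on the same side, whereas RAB40B spans 0.46 to -0.90 and RAB2A up to 0.82.

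The genes that act on or through RABs also changed in both directions. The enzymes and carriers of the lipid tail had 2 higher and 3 lower of 8 measured (62.5% called, against 32.5% of all genes), with a median log2 fold change of -0.14. Of these 8 genes 7 lay above the median of all genes in brightness, and with dim genes left out 55% of all genes were called. RABAC1, an acceptor of prenylated RABs on Golgi membranes, fell by 0.80 from 706 ± 10.8 to 398 ± 8.53 (limma adjusted p = 5.12e-06). RABGGTB, the catalytic subunit of the geranylgeranyl transferase, fell by 0.24 from 1512 ± 11.6 to 1274 ± 13.5 (limma adjusted p = 0.000921). ICMT, which methylates prenylated cysteines, rose by 0.25 and the inhibitor GDI2 by 0.18. RCE1, a protease that trims prenylated proteins of the CAAX type, fell by 0.47. RCE1 and ICMT were not called with shared probe sets left out (0.018 and 0.20). Without NFX1-91 shRNA array 2 only 1 gene of this list was called higher.

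Of 37 measured exchange factors 5 were higher and 11 lower (29.7%, against 17.8% of all genes), with a median of -0.08. The count of higher ones was 3 without control array 2 and without NFX1-91 shRNA array 1 or 2. In these settings 3075, 3441 and 2915 genes were called in all, against 3890 with all arrays. TRAPPC2, a core subunit of the TRAPP complexes, fell by 1.06 from 301 ± 28.0 to 136 ± 6.75 (limma adjusted p = 1.94e-05). DENND4B, an exchange factor of the DENN family, fell by 0.84, RIN3, which acts on RAB5 relatives, by 0.89, and MON1B, part of an exchange factor for RAB7, by 1.01. Of 27 GTPase-activating proteins 2 were higher and 7 lower (25.9%), with a median of -0.16. In either direction 33.3% of them were called, close to the 32.5% of all genes. TBC1D9 rose by 0.92 from 186 ± 12.6 to 367 ± 44.3 (limma adjusted p = 6.68e-05). TBC1D8B fell by 0.90, RABGAP1 by 0.66 and TBC1D16, known to act on RAB4A, by 0.65.

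Of 41 measured effectors 10 were higher and 12 lower, so that 53.7% were called, against 32.5% of all genes, and their median was -0.01. Effectors had a median signal of 182, above the 140 of all genes, and with dim genes left out 78.1% of 32 effectors and 55% of all genes were called. Without NFX1-91 shRNA array 2 the count of higher effectors was 6, in a setting with 2915 called genes in all. RAB11FIP2, which binds RAB11 and myosin V motors, rose by 1.03 from 228 ± 11.0 to 481 ± 20.9 (limma adjusted p = 5.49e-06). MLPH, or melanophilin, the link from RAB27A to myosin V, rose by 0.95 from 551 ± 53.7 to 1075 ± 57.1 (limma adjusted p = 1.2e-05). The motor MYO5C fell by 0.64, and the golgin GOLGA5 by 0.61. Further effectors of called RABs were picked out after their values were seen. MICALL2, the RAB13 effector at junctions, rose by 0.51 while RAB13 fell, and the motor MYO5A fell by 0.73 while RAB27A and MLPH rose. Of some effectors that bind RAB5, RABEP1 rose by 0.36 and APPL2 by 0.60, and APPL1 fell by 0.28. EEA1 (0.12) and RABEP2 (-0.19) did not pass. These are not all the effectors of RAB5 or RAB27 on the list. Beside the 10 called higher, the 12 called lower also included OCRL (-0.89), EXPH5 (-0.47), RUFY1 (-0.44) and INPP5B (-0.41).

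**Figure D5:**
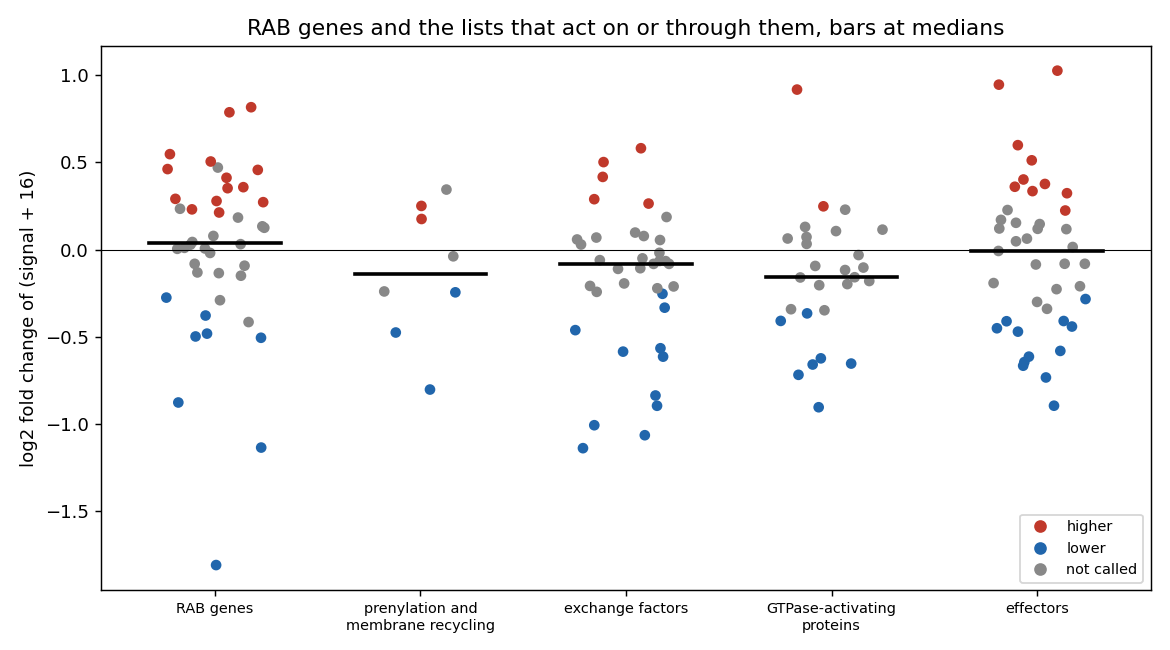
Log2 fold change of (signal + 16) of the 42 RAB genes and of the 8, 37, 27 and 41 measured genes of the 4 lists; points are genes, spread sideways only for display, bars are medians and colours give the call. Medians lie at 0.04 for RAB genes, -0.14, -0.08 and -0.16 for the first 3 lists and -0.01 for effectors.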

How the data were processed

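Biotin-labelled cRNA from total RNA was hybridised to Affymetrix arrays, 3 per group, per the labels' protocols. The deposited intensity values are linear, and each array's column sums to 1, so a value is a share of the array. How probes were summarised was not given in the sources used here. Each array was scaled to a mean of 500, and log2(signal + 16) was taken, with no further normalization.

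Names came from the platform annotation: of 22215 probe sets, 19064 had 1 gene, 1043 several and 2108 none listed. Of the former, 19052 matched RefSeq (GRCh38.p14) by gene identifier and 0 symbols changed. A gene is its brightest single-gene probe set. The comparison used limma 3.58.1 (R 4.3.3; variance trend, unpaired, two-sided) over all genes, with Benjamini-Hochberg adjustment. Of these steps only the limma fit was tested on simulated data. Figures used matplotlib 3.10.9.

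The members, lists and rules were chosen with earlier results of these data known. Named with values by array were the 6 largest rises and falls among called RAB genes whose brighter group mean exceeds the median signal of all genes, and up to 4 genes per list with the smallest adjusted p. Alternatives were other offsets, normalization by quantiles or by each array's median, a filter at the 40th percentile of brightness, no variance trend, other choices of probe set, a replicate block and leaving out each array.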

Additional observations from a re-analysis of the deposited data

Results flagged for a closer look

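RAB2A was not called by its brightest probe set, but 2 of its 5 other probe sets, which the comparison of genes did not use, gave more signal in NFX1-91 shRNA than in control samples. They were singled out for that reason. The first had a log2 fold change of 0.32, from 752 ± 109 to 935 ± 28.4 (SD, n = 3 per group; limma adjusted p = 0.0406 over probe sets). The other read 0.82, from 58.7 ± 12.5 to 116 ± 18.7 (limma adjusted p = 0.00495). Both are of the shared kind that may read more than a single transcript, which was not tested.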

How the results depend on the processing

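Over 16 alternative settings, 12 of the 22 called RAB genes kept call and direction throughout, and of 351 values for called genes 324 kept both, 26 lost the call and 1 was reversed. That was RAB40B by the mean of its probe sets (-0.22). By the same mean RAB2A, uncalled otherwise, was called higher (0.20), and with shared probe sets left out RCE1 read 0.018. With shared probe sets left out RAB1A (0.04) and RAB28 (-0.38) lost their calls. A shared probe set was left out only where its gene also had one of another kind. Genes read by shared ones only, among them RAB1B, RAB5C, RAB8B, RAB23, RAB27A and RAB36, were therefore not tested by this setting. Leaving out each array gave between 9 and 13 higher and between 8 and 10 lower RAB genes, and between 2915 and 3920 called genes in all. Median centring moved the median of all genes from 0.00 to 0.03. Of the 20 uncalled RAB genes 15 were not called in any alternative tried. With the replicate block there were 15 higher and 8 lower RAB genes and 3598 called genes in all. The deviations of same-numbered arrays correlated at -0.03, 0.08 and -0.02, and 2 of 6 arrays correlated best with their own number, so the numbers were not taken as pairs. Dim genes such as RAB40A, RAB40C and RAB32, with a mean signal below the offset, cannot be judged from these arrays.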
